A study of Mus musculus with 25 samples.

Results

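The genes of homologous recombination and of the Fanconi anemia pathway were examined in mouse liver, together with the checkpoint kinases that act with them. The 37 genes were taken from a list chosen with earlier results of these data known. They were matched to probe sets by the platform annotation, older symbols allowed. A probe set carrying a single gene symbol was found for 35 of them, and these 35 were all bright enough to be tested among the 15951 tested genes of the array. Xrcc2 and Rbbp8 were not analysed here.

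Expression had been measured on 25 arrays of frozen liver, in log2 signal, where a difference of 1 is a 2-fold change. All animals were of strain FVB;129. The design joins Cre recombinase, driven in hepatocytes by the promoter of albumin, to loxP sites in Rb and/or p53, so that other liver cells keep both genes. Mice with both genes deleted (DKO), with Rb deleted (RbKO), with p53 deleted (p53KO) and with neither deleted (WT) were aged 14 days when they received 20 mg/kg diethylnitrosamine (DEN) by intraperitoneal injection, and their livers were collected 24 h later. DEN is a carcinogen that hepatocytes turn into a DNA-alkylating agent. There were 5 DEN DKO, 4 DEN RbKO, 5 DEN p53KO, 5 DEN WT, 3 untreated DKO and 3 untreated WT arrays. The labels call the last 2 groups untreated, whereas the series text speaks of saline, and the sources used here do not say whether WT animals carried Cre. Nor do they tie each array to an animal of its own, and the spread behind the p-values may be technical in part.

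Homologous recombination repairs double-strand breaks and collapsed replication forks by copying the sister chromatid, and is used mainly in S and G2 phase. The Fanconi pathway detects DNA crosslinks at stalled forks. Its core complex attaches ubiquitin to FANCD2 and FANCI, and recombination then restores the fork. Many of these genes are transcribed in step with the cell cycle, in part through E2F factors, which the retinoblastoma protein (the product of Rb1) holds back. p53 lowers the expression of many cell cycle genes after DNA damage, largely through p21 and the DREAM complex, which also binds E2F and CHR motifs.

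Because E2F and CHR motifs are the sites by which RB and p53 are known to reach such genes, the RefSeq promoter sequences (GRCm38.p6) of the listed genes were searched for them. The search covered the 250 bases before each start on both strands. The E2F motif was TTT, then 2 bases that are each C or G, then CGC, and the CHR motif was TTTGAA. Of the 35 measured genes, 30 had promoters in the table, 33 in all. The E2F motif was found in 5 of these 33 promoters (15.2%), against 611 of 32851 promoters in the table (1.86%). The windows around the 5 matches follow, 5′ to 3′ on the gene's own strand, with the E2F motif or its reverse complement in capitals.
Bard1, chr1:71103163-71103192, minus strand: ccgccgctcagTTTCCCGCtcaggaagttt
Brca2, chr5:150522442-150522471, plus strand: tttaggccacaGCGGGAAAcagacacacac
Chek2, chr5:110839820-110839849, plus strand: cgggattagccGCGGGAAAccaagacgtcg
Fancg, chr4:43010335-43010364, minus strand: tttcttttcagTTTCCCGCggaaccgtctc
Topbp1, chr9:103305187-103305216, plus strand: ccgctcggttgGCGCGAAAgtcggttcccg
The motif lay 209 to 202 bases before the start of Bard1, 168 to 161 before Brca2, 152 to 145 before Chek2, 129 to 122 before Topbp1 and 52 to 45 before Fancg. The windows of Brca2, Chek2, Fancg and Topbp1 lie inside the span that RefSeq annotates for the gene, and that of Bard1 lies outside it. The CHR motif was found in 1 of the 33 promoters, that of Bard1, against 16% of all promoters in the table. It lay 242 to 237 bases before the start.
Bard1, chr1:71103198-71103222, minus strand, CHR motif in capitals: cccgcctcTTTGAAggcgtggcctg
No E2F motif of this form was found in the searched window of Fancb, Rad51c, Chek1 or Gen1, which had the most calls below. A match is a description of these letters and not evidence of binding.

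The array names divide the arrays into 3 sets. All 6 groups are found in set 1. The 4 arrays of set 2 are 1 DEN RbKO, 2 DEN WT and 1 untreated WT array, and the 5 of set 3 are 2 DEN DKO and 3 DEN p53KO arrays. Set 2 stood apart on the first principal component, which carried 25.8% of the variance and averaged -11.8, 46.6 and 0.641 in sets 1, 2 and 3. The set was therefore a term in the fit of each comparison, and values within sets are given for the members' medians and for part of the called genes, including nearly all of those in RbKO against WT livers. Rb1 was called in none of the comparisons, although its log2 signal was 5.02, 5.02 and 4.76 in untreated DKO livers, against 5.34, 5.30 and 5.76 in untreated WT livers (log2 difference -0.50, limma adjusted p = 0.336). After DEN it was 5.18 to 5.82 in DKO livers, against 5.04 to 6.02 in WT livers. The arrays labelled RbKO had 5.55, 5.64 and 5.79 in set 1 and 6.28 in set 2, the last being the highest Rb1 signal of all 25 arrays. The DEN p53KO livers, which keep Rb by their label, had 5.56 to 5.93, so this signal did not separate livers labelled with and without Rb after DEN. The Rb1 value of the RbKO array in set 2 (replicate 4) therefore cannot settle whether its label is right or wrong. The members' calls in RbKO against WT livers are given with and without replicate 4 below. Counts of other listed genes are given with it only. In RbKO against WT livers after DEN the log2 difference of Rb1 was 0.08 in the fit, -0.26 within set 1 and 0.78 within set 2. Which part of the transcript the probe set covers relative to the deletion is not given in the sources used here. Hepatocyte markers such as Alb were high in every group, with list means between 10.53 and 11.17 log2. Of 14 p53 target genes, 9 were lower in DEN DKO than in DEN WT livers (median log2 difference -0.63) and none was higher. In p53KO against WT livers after DEN 3 of the 14 were lower. Within DKO livers 5 of the 14 were still higher after DEN than without it, among them Ccng1 by 2.04. In bulk liver, fewer cells of a type and less RNA per cell cannot be told apart.

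After DEN, 4 to 14 of the 35 genes were called higher in livers labelled RbKO, p53KO or DKO than in WT livers, and no member was called lower in any of the 9 comparisons. A gene was called by limma where its Benjamini-Hochberg adjusted p, over all tested genes, was below 0.05. By this rule 11 of the 35 were higher in DEN DKO than in DEN WT livers, where 2.69% of all tested genes were higher and 9.14% lower. In RbKO against WT livers after DEN, 14 were higher, against a background of 5.23% higher and 6.13% lower. In p53KO against WT livers, 4 were higher, against 0.708% higher and 1.07% lower. Within DKO livers, 12 were higher after DEN than without it, against 4.49% higher and 16.5% lower. Because the list was chosen with earlier results of these data known, these counts beside the shares are a description and not independent support. A total of 19 members was called in at least 1 comparison and 16 in none. Where groups of a called gene are said below not to overlap, the values are those that gave the call and are no further support. The share of all tested genes without such overlap is not given here.

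**Figure D1:**
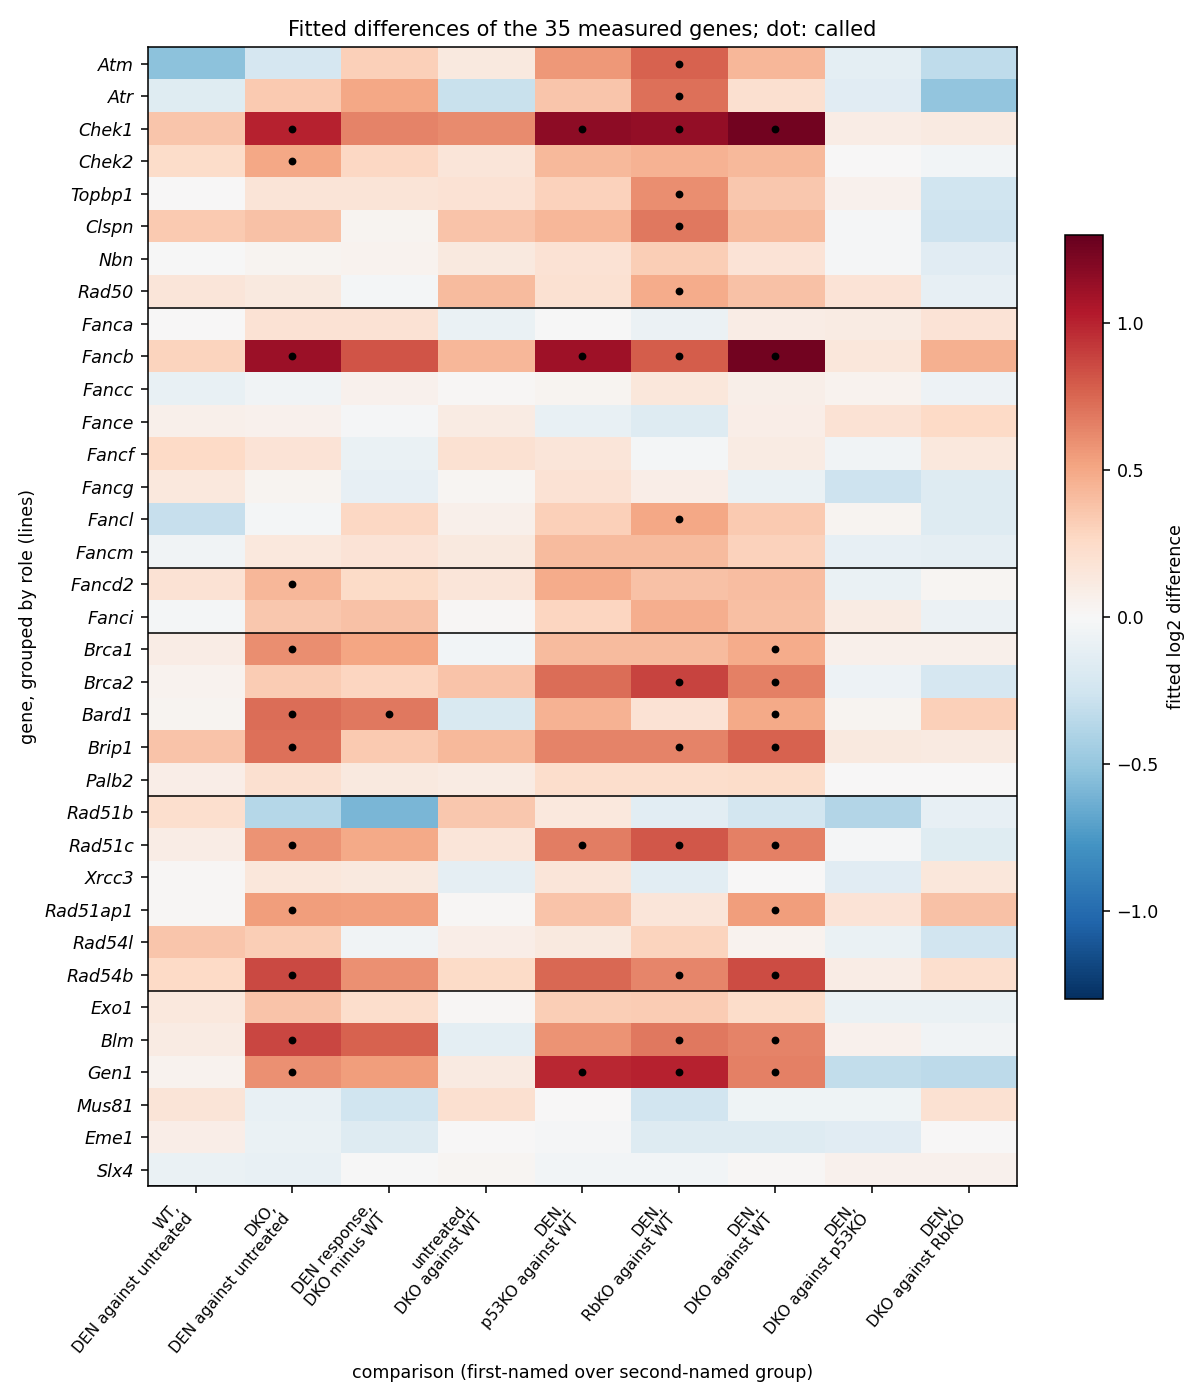
Fitted log2 differences (colour scale) of the 35 measured genes (rows, grouped by role) in the 9 comparisons (columns, first-named over second-named group), with a dot where the gene was called. The dots lie in the comparisons against WT after DEN, in DKO livers after DEN and, for Bard1, in the difference between the DEN responses, and no dot lies in the DKO columns against p53KO or RbKO, nor on a lower (blue) cell.

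**Figure D2:**
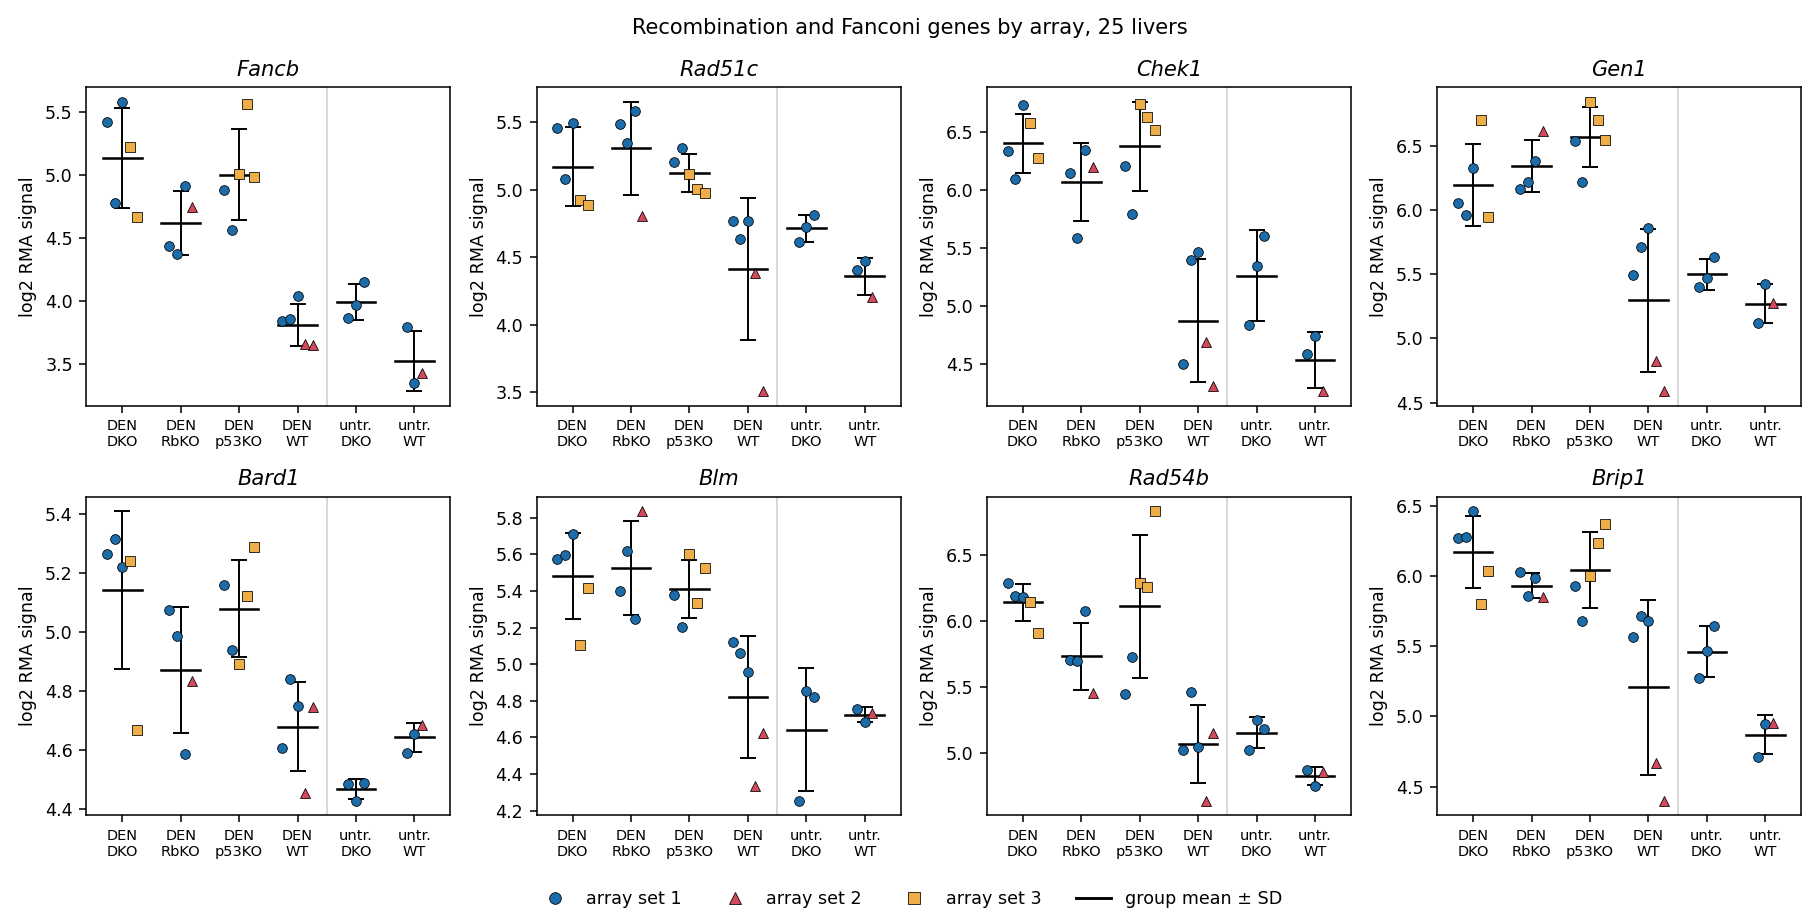
Log2 signal (y axis) of the 8 genes with the most calls, by group (x axis), one point per array, with group means and SD as bars and the array set as colour and shape. In Fancb, Rad51c, Chek1 and Gen1 the 14 arrays of DEN-treated DKO, RbKO and p53KO livers all lie above the 5 DEN WT arrays. The genes were chosen by their calls on the same arrays, so this order adds no support. It also takes no account of the array set.

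Among the 8 kinases, sensors and mediators of the damage signal, Chek1 changed most widely. Chek1 is the effector kinase that ATR activates at stalled forks. Its log2 signal after DEN was 6.33, 6.09, 6.73, 6.58 and 6.28 in DKO livers, 6.15, 5.58, 6.35 and 6.19 in RbKO livers and 6.21, 5.79, 6.74, 6.63 and 6.51 in p53KO livers, against 4.50, 5.39, 5.47, 4.69 and 4.31 in WT livers. It was 4.83, 5.35 and 5.61 in untreated DKO livers, against 4.59, 4.74 and 4.27 in untreated WT livers. Every array of the 3 deleted genotypes after DEN lay above every WT array, and the DEN DKO arrays lay above the untreated DKO arrays. Chek1 rose by a log2 difference of 1.26 (SE 0.226, limma adjusted p = 0.000853) in DKO against WT after DEN, 1.14 (SE 0.211, adjusted p = 0.00204; 0.90 within set 1 and 1.69 within set 2) in RbKO against WT and 1.17 (SE 0.244, adjusted p = 0.0164) in p53KO against WT. These 3 values share the 5 DEN WT arrays. The p53KO call was lost in set 1 alone and in a fit of the DEN p53KO and DEN WT arrays alone. It was also lost without p53KO replicate 1 (limma adjusted p = 0.0694). Within DKO livers it was higher after DEN by 1.0 (SE 0.241, adjusted p = 0.00373). Without DEN the log2 difference of DKO over WT livers was 0.62 and was not called (adjusted p = 0.32).

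Atm, Atr, Topbp1, Clspn and Rad50 were called in RbKO against WT livers after DEN and in no other comparison. Atr, the kinase that responds to single-stranded DNA at stalled forks, had log2 signals of 6.53, 6.70, 6.71 and 7.36 in RbKO livers, against 6.31, 6.22, 6.04, 6.22 and 5.97 in WT livers. Atm, the kinase that responds to double-strand breaks, had 5.21, 5.12, 5.19 and 5.78 in RbKO livers, against 4.62, 4.62, 4.88, 4.33 and 4.42 in WT livers. In neither gene did the groups overlap, and in both the highest value was that of the single array labelled RbKO in set 2. The log2 difference was 0.72 for Atr (0.46 within set 1 and 1.27 within set 2) and 0.77 for Atm (0.47 within set 1 and 1.41 within set 2), with limma adjusted p = 0.00336 and 0.0112. Atm had 4.74 to 5.34 in untreated WT and 5.00 to 5.45 in untreated DKO livers, which both overlapped the RbKO values. Atr had 6.01 to 6.72 in untreated WT livers, which also overlapped them, and 5.83 to 5.99 in untreated DKO livers. Rad50, a subunit of the MRN complex that binds broken ends, had 7.76 to 8.15 in RbKO livers and 7.21 to 7.60 in WT livers, a log2 difference of 0.48 (adjusted p = 0.0384; 0.50 within set 1 and 0.40 within set 2) that was not called without any 1 of 7 of the 9 arrays. Topbp1, which activates ATR, and Clspn, which presents CHK1 to ATR, overlapped between these groups, with log2 differences of 0.61 (adjusted p = 0.0369) and 0.69 (adjusted p = 0.0083). Within set 1 and set 2 these were 0.41 and 0.95 for Topbp1, and 0.40 and 1.29 for Clspn. The call of Topbp1 was lost without any 1 of 6 of the 9 arrays (limma adjusted p up to 0.191). That Atm, Atr, Topbp1, Clspn and Rad50 were called in this comparison alone does not show that RbKO livers differed from the other deleted genotypes. In DKO against RbKO livers the log2 difference was -0.51 for Atr (95% interval -0.83 to -0.19, adjusted p = 0.12), and Atr had 6.21, 6.08, 6.27, 6.94 and 6.42 in DKO livers.

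Chek2, the effector kinase of ATM, was called in DKO livers after DEN. It had log2 signals of 4.72, 4.62, 4.78, 4.54 and 4.36 in DEN DKO livers, against 4.06, 3.92 and 4.12 in untreated DKO livers, with no overlap. The log2 difference of 0.50 was close to the threshold (SE 0.181, limma adjusted p = 0.0485), and the call was lost without any 1 of 6 of the 8 arrays (adjusted p up to 0.159). Nbn, the MRN subunit that recruits ATM, was called in no comparison, with group means between 6.88 and 7.20 log2 on its brighter probe set.

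Of the 8 measured subunits of the Fanconi core complex, Fancb was the one called repeatedly. Fancb forms, with Fancl and Faap100, the part of the complex that carries the ubiquitin ligase. Its log2 signal after DEN was 5.42, 4.78, 5.58, 5.23 and 4.67 in DKO livers, 4.43, 4.38, 4.91 and 4.74 in RbKO livers and 4.88, 4.56, 5.01, 5.57 and 4.99 in p53KO livers, against 3.84, 3.86, 4.04, 3.65 and 3.65 in WT livers. It was 3.87, 3.97 and 4.15 in untreated DKO livers, against 3.80, 3.35 and 3.42 in untreated WT livers. The arrays of deleted genotypes after DEN lay above all DEN WT and all untreated arrays. Fancb rose by a log2 difference of 1.25 (SE 0.198, limma adjusted p = 0.000285) in DKO, 0.79 (SE 0.185, adjusted p = 0.00813; 0.66 within set 1 and 1.09 within set 2) in RbKO and 1.10 (SE 0.214, adjusted p = 0.0101) in p53KO livers against the same DEN WT arrays. In DKO livers it was 1.11 higher after DEN than without it (SE 0.212, adjusted p = 0.000455).

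Fancl, the ubiquitin ligase of the complex, was called in RbKO against WT livers after DEN, with log2 signals of 6.14, 6.10, 6.31 and 5.92, against 5.60, 5.76, 5.96, 5.25 and 5.26. The groups overlapped through 1 array each, and the log2 difference was 0.50 (SE 0.138, limma adjusted p = 0.0204; 0.41 within set 1 and 0.66 within set 2). Fancl had 5.82 to 6.04 in untreated WT and 5.79 to 6.28 in untreated DKO livers, which both overlapped the RbKO values. The other 6 subunits (Fanca, Fancc, Fance, Fancf, Fancg and Fancm) were called in no comparison. Fancm, the translocase that anchors the complex at the fork, came nearest, with means of 4.67 ± 0.23 log2 in 4 RbKO livers and 4.27 ± 0.16 log2 in 5 WT livers after DEN (SD; log2 difference 0.41, limma adjusted p = 0.0697). Fancc, by contrast, had group means between 3.96 and 4.08 log2 in all 6 groups.

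Of the pair that the core complex marks with ubiquitin, Fancd2 was called in DKO livers after DEN. It had log2 signals of 4.49, 4.46, 4.25, 4.09 and 4.39 in DEN DKO livers, against 3.73, 3.63 and 4.16 in untreated DKO livers, which overlapped (log2 difference 0.43, SE 0.155, limma adjusted p = 0.0482). This call too was lost without any 1 of 6 of the 8 arrays (adjusted p up to 0.231). Fanci, its partner, was called nowhere. Its mean was 4.70 ± 0.43 log2 in DEN DKO livers (n = 5) and 4.17 ± 0.20 log2 in untreated DKO livers (n = 3), a log2 difference of 0.35 (limma adjusted p = 0.206).

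The BRCA group was the one with the largest share of calls in DKO livers, with 4 of its 5 measured members higher than in WT livers after DEN and 3 higher than in untreated DKO livers. Brip1 is a helicase that binds BRCA1. It had log2 signals of 6.27, 6.28, 6.46, 5.80 and 6.04 in DKO livers and 6.03, 5.86, 5.99 and 5.85 in RbKO livers after DEN, against 5.56, 5.71, 5.68, 4.67 and 4.40 in WT livers. Neither deleted group overlapped WT, and the 2 lowest WT values were those of set 2. Its log2 difference was 0.76 (SE 0.197, limma adjusted p = 0.0127) in DKO and 0.65 (SE 0.184, adjusted p = 0.024; 0.30 within set 1 and 1.32 within set 2) in RbKO livers.

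Brca1, a ubiquitin ligase that promotes end resection, had log2 signals of 5.30, 5.53, 5.80, 5.09 and 5.55 in DEN DKO livers, against 4.86, 5.03, 5.00, 5.02 and 4.90 in DEN WT livers and 4.80, 4.62 and 4.91 in untreated DKO livers. It overlapped neither group and rose by 0.48 over WT (SE 0.155, limma adjusted p = 0.0439) and by 0.61 over untreated DKO (SE 0.165, adjusted p = 0.00902). The call over WT was lost without any 1 of 7 of the 10 arrays (adjusted p up to 0.197). Bard1, the partner of BRCA1 in that ligase, had 5.26, 5.32, 5.22, 5.24 and 4.67 in DEN DKO livers, against 4.48, 4.43 and 4.49 in untreated DKO livers. In WT livers it had 4.61, 4.84, 4.75, 4.45 and 4.74 after DEN, against 4.59, 4.65 and 4.69 without it. Bard1 thus rose in DKO livers (log2 difference 0.73, SE 0.147, limma adjusted p = 0.000801) and overlapped fully in WT livers.

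Brca2, a core mediator of homologous recombination, had log2 signals of 5.64, 5.93, 5.60, 5.92 and 5.55 in DKO, 5.91, 5.46, 5.78 and 6.32 in RbKO and 5.37, 5.61, 6.05, 6.45 and 5.83 in p53KO livers after DEN, against 5.17, 5.08, 5.30, 5.05 and 4.50 in WT livers. All 3 deleted groups lay above WT. The log2 difference was 0.65 in DKO (SE 0.206, limma adjusted p = 0.0376) and 0.88 in RbKO livers (SE 0.192, adjusted p = 0.00558; 0.54 within set 1 and 1.55 within set 2), and the value of 0.72 in p53KO livers was not called (adjusted p = 0.0857). Palb2, which joins BRCA1 to BRCA2, was called nowhere and had group means between 3.32 and 3.77 log2.

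Among the strand invasion factors (Rad51b, Rad51c, Xrcc3, Rad51ap1, Rad54l and Rad54b), Rad51c and Rad54b carried most calls. Rad51c belongs to complexes that act early in recombination. After DEN it had log2 signals of 5.46, 5.08, 5.50, 4.92 and 4.88 in DKO livers, 5.49, 5.35, 5.59 and 4.81 in RbKO livers and 5.21, 5.31, 5.11, 5.01 and 4.97 in p53KO livers, against 4.77, 4.64, 4.77, 4.38 and 3.51 in WT livers. It had 4.61, 4.72 and 4.81 in untreated DKO livers, against 4.40, 4.47 and 4.21 in untreated WT livers. The deleted groups lay above WT, narrowly in RbKO, and the lowest WT array belonged to set 2. Rad51c rose by 0.65 (SE 0.148, limma adjusted p = 0.00548) in DKO, 0.80 (SE 0.138, adjusted p = 0.00144) in RbKO and 0.67 (SE 0.160, adjusted p = 0.0314) in p53KO livers. The p53KO call was lost without any 1 of 3 of the 10 arrays (limma adjusted p up to 0.12). In RbKO livers the difference was nearly the same within both sets, at 0.75 in set 1 and 0.86 in set 2.

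Rad54b, a DNA translocase of recombination, had log2 signals of 6.28, 6.19, 6.18, 6.14 and 5.91 in DEN DKO livers, against 5.02, 5.46, 5.04, 4.64 and 5.15 in DEN WT livers and 5.02, 5.25 and 5.18 in untreated DKO livers. The DEN DKO arrays stood clear of both. It rose by 0.85 over WT (SE 0.190, limma adjusted p = 0.00458) and by 0.85 over untreated DKO livers (SE 0.202, adjusted p = 0.00333), and by 0.64 in RbKO over WT livers (SE 0.177, adjusted p = 0.0218; 0.65 within set 1 and 0.56 within set 2). Rad51ap1, an accessory factor of strand invasion, had 5.11, 5.40, 5.38, 5.47 and 6.17 in DEN DKO livers, against 4.41, 4.91, 4.99, 4.66 and 4.78 in DEN WT livers, with no overlap (log2 difference 0.55, SE 0.155, limma adjusted p = 0.0222). Rad51b, Xrcc3 and the translocase Rad54l were called nowhere. Rad51b ran lower rather than higher in DKO livers after DEN, with a mean of 4.08 ± 0.32 log2 (n = 5), against 4.37 ± 0.17 log2 in untreated DKO livers (n = 3), and its log2 difference of -0.38 was not called (limma adjusted p = 0.257).

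Of 6 genes for resection and for the resolution of joint molecules, Gen1 and Blm were called and the other 4 were not. Gen1, a nuclease that cuts Holliday junctions, had log2 signals of 6.05, 5.96, 6.33, 6.70 and 5.95 in DKO livers, 6.16, 6.22, 6.38 and 6.62 in RbKO livers and 6.54, 6.22, 6.84, 6.70 and 6.55 in p53KO livers after DEN, against 5.50, 5.71, 5.86, 4.83 and 4.59 in WT livers. All arrays of the deleted groups lay above WT, whose 2 lowest values were those of set 2. Gen1 rose by 0.66 (SE 0.200, limma adjusted p = 0.0314) in DKO, 1.0 (SE 0.186, adjusted p = 0.0021) in RbKO and 0.98 (SE 0.215, adjusted p = 0.0229) in p53KO livers. Within set 1 these differences were smaller, at 0.43 in DKO, 0.56 in RbKO and 0.69 in p53KO livers, and the RbKO difference was 1.91 within set 2. In DKO livers Gen1 was 0.59 higher after DEN than without it (SE 0.213, limma adjusted p = 0.0488). That call was close to the threshold and was lost without any 1 of 7 of the 8 arrays (adjusted p up to 0.146).

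Blm, the helicase that dissolves double Holliday junctions, had log2 signals of 5.57, 5.60, 5.71, 5.11 and 5.42 in DEN DKO livers, against 4.25, 4.85 and 4.82 in untreated DKO livers, with no overlap (log2 difference 0.87, SE 0.185, limma adjusted p = 0.00127). DEN WT livers had 5.12, 5.06, 4.96, 4.33 and 4.62, which just reached the lowest DKO array (log2 difference 0.64, SE 0.173, adjusted p = 0.0169). In RbKO against WT livers the log2 difference was 0.69 (SE 0.162, adjusted p = 0.00835), with 0.38 within set 1 and 1.36 within set 2. Mus81 and Eme1, which form a further junction nuclease, the scaffold Slx4 and the resection nuclease Exo1 were called nowhere. Mus81 had means of 3.46 ± 0.17 log2 in DKO and 3.37 ± 0.19 log2 in RbKO livers, against 3.63 ± 0.17 log2 in WT livers after DEN (SD, n = 5, 4 and 5). Exo1 had means of 4.52 ± 0.36 and 4.28 ± 0.49 log2 in DKO and RbKO livers, against 3.86 ± 0.47 log2 in WT livers after DEN (SD, n = 5, 4 and 5).

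The first comparison asks how the pathway answers DEN in WT liver. No member was called by limma, against 2.08% of all tested genes higher and 1.91% lower. At an unadjusted p under 0.05, Rad54l was higher (log2 difference 0.36) and Atm lower (log2 difference -0.53), and the smallest adjusted p was 0.146. The median log2 difference of the 35 genes was 0.09, against 0.02 over all tested genes. The 2 sets that can answer this comparison went opposite ways: the median was 0.18 within set 1 with 30 of 35 genes above 0, and -0.09 within set 2 with 13 above 0. Within set 1 alone 3 genes were called, Brca2 (0.48), Brip1 (0.83) and Clspn (0.60), a count given without the share of all tested genes in that fit. In the same livers 9 of 14 p53 target genes rose, among them Ccng1 by 2.49 and Mdm2 by 1.44.

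In DKO livers the 12 genes that rose after DEN came from every role: Chek1 and Chek2, Fancb, Fancd2, 3 of the BRCA group (Bard1, Brca1, Brip1), 3 of the strand invasion factors (Rad51ap1, Rad51c, Rad54b) and 2 of the last group (Blm, Gen1). The median log2 difference of the 35 genes was 0.32, against 0.00 over all tested genes, and 0.30 within set 1. Centred on the array median, where the median of all genes moves by -0.10, 8 of the 12 were called. This count is given without the share of all tested genes in that fit. Whichever array of these groups was left out, Bard1, Blm, Chek1, Fancb, Rad51c and Rad54b kept the call, and 7 of the 12 calls were left without untreated DKO replicate 1 or replicate 2. In these fits the calls over all tested genes ranged from 2396 to 3271. Non-parenchymal markers moved in the same comparison. Of 8 endothelial markers 7 fell, with list means of 5.88 to 6.15 log2 in DEN DKO livers, against 6.81 to 6.89 log2 in untreated DKO livers. Of 8 neutrophil and myeloid precursor markers tested 5 fell (list means 4.49 to 5.18 against 5.41 to 5.98 log2), as did 5 of 8 stellate cell markers. Of 9 hepatocyte markers 1 rose and 4 fell, with list means of 10.53 to 10.66 log2 against 10.86 to 10.88 log2. The part of these shifts in the members' differences was not tested.

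The difference between these responses was called for 1 gene, Bard1, against 1.36% of all tested genes called higher and 8.54% lower. Its DEN response was larger in DKO than in WT livers by 0.69 (SE 0.202, limma adjusted p = 0.0295; 0.69 within set 1). Fancb (0.82, adjusted p = 0.0755) and Blm (0.77, adjusted p = 0.0538) had larger estimates that were not called, and 8 of 35 genes had an unadjusted p under 0.05, all with a larger response in DKO. The call of Bard1 depended on the choice of probe set, and was lost when any 1 of 7 arrays was left out (log2 differences 0.63 to 0.70, limma adjusted p = 0.0522 to 0.107). Its other 2 probe sets had means of 4.98 ± 0.28 and 3.95 ± 0.14 log2 in DEN DKO livers (n = 5), against 4.37 ± 0.48 and 3.44 ± 0.23 log2 in untreated DKO livers (n = 3). The mean of the 3 probe sets did not give a call. Cell type markers went the other way in this contrast. Of 8 neutrophil and myeloid precursor markers 4 were called lower (list median -1.85, Ngp -3.14), as were 4 of 8 endothelial markers (list median -0.74) and 2 of 8 stellate cell markers (list median -0.22), and their part was not tested.

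Without DEN, no member was called by limma between DKO and WT livers, against 0.865% of all tested genes higher and 0.244% lower. Chek1 (log2 difference 0.62) and Rad50 (0.41) had an unadjusted p under 0.05. The median log2 difference was 0.12 (0.19 within set 1), against 0.01 over all tested genes, and 29 of 35 genes were above 0. Within set 1 alone 3 genes were called, Brca2 (0.57), Brip1 (0.63) and Rad50 (0.50), again without the share of all tested genes in that fit. In these livers 3 of 8 neutrophil and myeloid precursor markers were higher in DKO, with list means of 5.41 to 5.98 log2 against 4.33 to 4.43 log2, and their part was not tested.

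After DEN the 3 deleted genotypes can be set beside each other against the same WT arrays. The median log2 difference of the 35 genes was 0.35 in DKO, 0.41 in RbKO and 0.32 in p53KO livers, against -0.03, -0.04 and -0.01 over all tested genes. Chek1, Fancb, Gen1 and Rad51c were called in all 3 comparisons. Within set 1 the medians were 0.32 in DKO, 0.29 in RbKO and 0.15 in p53KO livers. RbKO livers could also be compared within set 2, 1 array against 2, where the median was 0.42. Without that array, labelled RbKO replicate 4, 2 of the 14 calls were left, those of Chek1 and Rad51c, while the others had log2 differences of 0.46 to 0.71 (limma adjusted p = 0.0516 to 0.231). Without any array of set 2 Rad51c alone was called, a count given without the share of all tested genes in that fit. Of the 11 DKO calls against WT, 5 were left without DKO replicate 3, and those of Chek1, Fancb, Rad51c and Rad54b were kept whichever array of these groups was left out. Of the 4 p53KO calls, 1 (Fancb) was left without p53KO replicate 1, and none in a limma fit of the DEN p53KO and DEN WT arrays alone, where 4 members had an unadjusted p under 0.05. Calls over all tested genes moved too with 1 array left out. Against WT they ranged from 279 to 1970 for RbKO, 1398 to 2114 for DKO and 35 to 390 for p53KO livers. Of 8 endothelial markers, 6 were lower in DKO than in WT livers after DEN, with list means of 5.88 to 6.15 against 6.49 to 6.87 log2. In RbKO livers 1 was lower (list means 6.21 to 6.62). In p53KO livers none was called, but all 8 were below 0 (median -0.485, list means 5.93 to 6.45). The part of these markers was not tested. In DEN WT livers the 2 arrays of set 2 had the lowest list means, 4.67 and 4.61 log2, against 4.73 to 4.90 log2 in set 1.

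**Figure D3:**
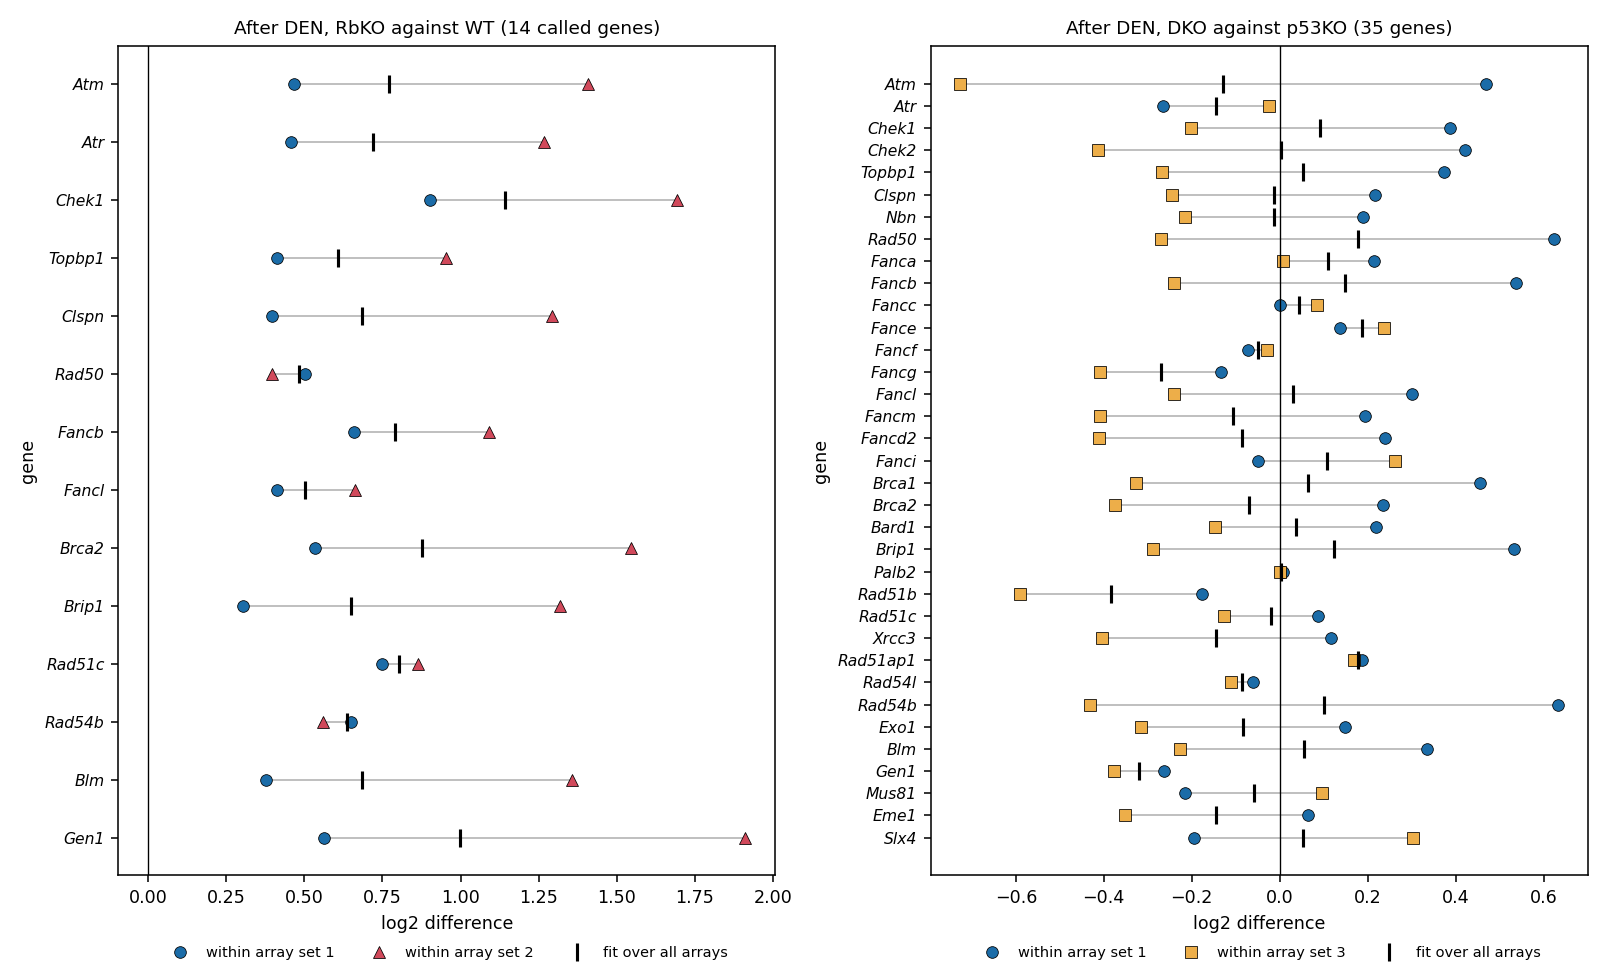
Log2 differences (x axis) taken within single array sets (coloured points) and in the fit over all arrays (black marks), by gene (y axis), for RbKO against WT (left, the 14 called genes) and DKO against p53KO (right, 35 genes), both after DEN. On the left all points are above 0, mostly farther out in set 2; on the right set 1 has 25 of 35 genes above 0 and set 3 has 7.

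Directly between deleted genotypes no member was called. In DKO against p53KO livers, where 0.357% of all tested genes were higher and 1.51% lower by limma, 1 member had an unadjusted p under 0.05, Fancg (log2 difference -0.27). The median was 0.00, and the sets disagreed, with 0.19 within set 1 and -0.24 within set 3. The 95% intervals were -0.32 to 0.51 for Chek1, -0.21 to 0.51 for Fancb, -0.29 to 0.25 for Rad51c and -0.69 to 0.05 for Gen1. In DKO against RbKO livers, where 0.144% were higher and 0.884% lower by limma, 4 members had an unadjusted p under 0.05: Fancb, Bard1 and Rad51ap1 higher in DKO and Atr lower. The median was -0.05 (0.04 within set 1). The 95% intervals were -0.36 to 0.59 for Chek1, 0.05 to 0.87 for Fancb (limma adjusted p = 0.304), -0.46 to 0.16 for Rad51c and -0.76 to 0.08 for Gen1. An interval that holds 0 does not show that the genotypes are alike.

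In deleted against WT livers after DEN, the members moved beside a list of 27 S phase and mitosis markers, which mark cycling cells. The mean log2 signal of the 35 members was 5.11 to 5.29 in DKO, 5.07 to 5.20 in RbKO and 4.98 to 5.37 in p53KO livers, against 4.61 to 4.90 in WT livers after DEN. The marker mean was 6.68 to 6.92 in DKO, 6.63 to 6.82 in RbKO and 6.37 to 6.98 in p53KO livers, against 5.31 to 6.47 in WT livers. Of the 27 markers 11 rose in DKO, 15 in RbKO and 0 in p53KO livers against WT (limma; the median in p53KO was 0.47). Top2a rose by 1.36 in DKO and by 1.35 in RbKO livers, the latter being 0.66 within set 1 and 2.76 within set 2. In untreated livers the marker mean was 6.22 to 6.57 in DKO, against 5.55 to 5.84 in WT livers, whereas the members' mean was 4.77 to 4.90 against 4.62 to 4.77. In DEN WT livers the 3 arrays of set 1 had marker means of 6.35 to 6.47 and the 2 arrays of set 2 had 5.31 and 5.44. The lists parted in other comparisons. Within DKO livers after DEN 9 markers rose and 3 fell (Gins2, Mcm2 and Tk1), where 12 members rose and none fell. In the DEN response of DKO minus that of WT livers the median was 0.22 for the members and -0.11 for the markers. The part of cell cycling in the members' differences was not tested.

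**Figure D4:**
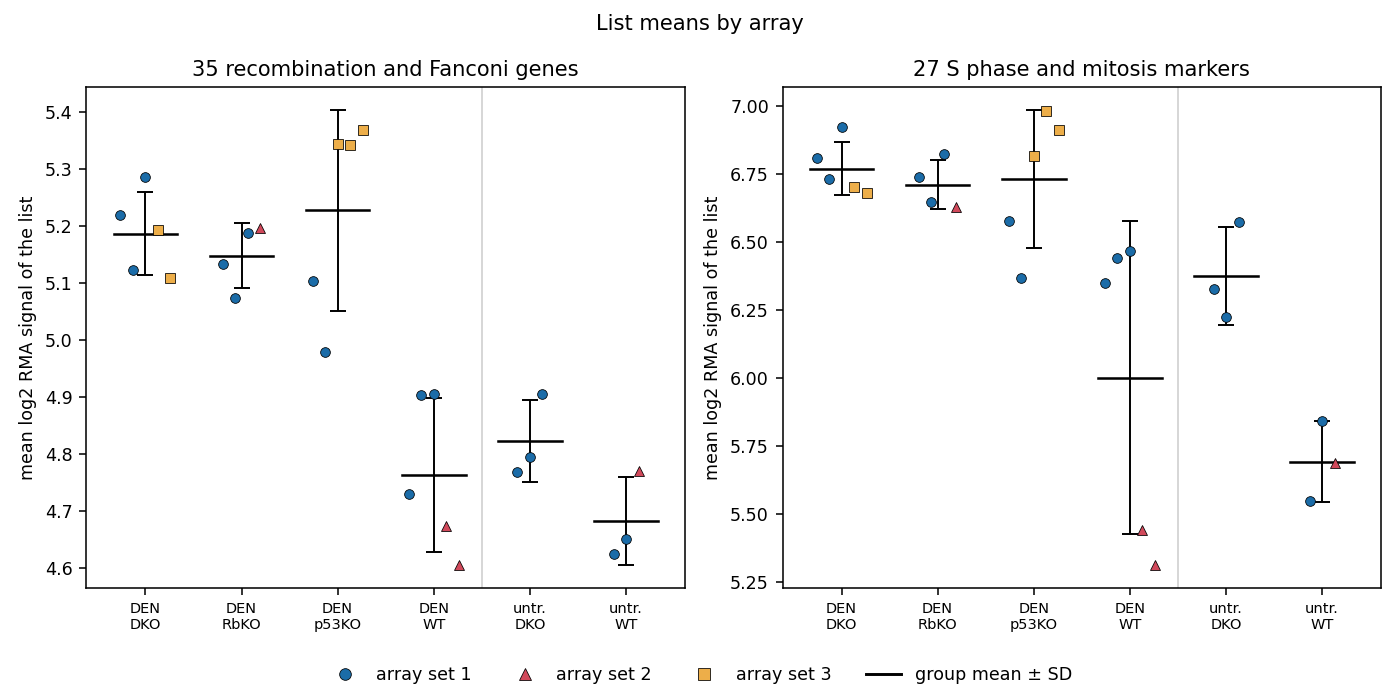
Mean log2 signal (y axis) of the 35 pathway genes (left) and of 27 S phase and mitosis markers (right) by group (x axis), one point per array, with group means and SD as bars and the array set as colour and shape. In both panels the DEN-treated deleted groups lie at the top, and the 2 DEN WT arrays of set 2 lie lowest within their group.

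A list of 54 other genes of these pathways, of which 50 were measured, moved in both directions. After DEN, 5 rose and 3 fell in DKO against WT livers, 9 rose and 2 fell in RbKO, and 3 rose and 1 fell in p53KO livers. Over all tested genes 2.69% were higher and 9.14% lower in DKO, 5.23% and 6.13% in RbKO, and 0.708% and 1.07% in p53KO livers. Parpbp, which restrains recombination, rose in all 3 comparisons by log2 differences of 1.03 in DKO (limma adjusted p = 0.00148), 0.89 in RbKO (adjusted p = 0.004) and 0.81 in p53KO livers (adjusted p = 0.0498). Tipin, which stabilises stalled forks, rose by 0.75 in DKO and 1.03 in RbKO livers, and Rpa3, a subunit of the protein that coats single-stranded DNA, by 0.90 in DKO and 0.93 in p53KO livers. Usp1, which removes ubiquitin from FANCD2, rose by 0.76 in RbKO livers (0.54 within set 1 and 1.23 within set 2). Babam1, a subunit of the BRCA1-A complex, fell by 1.02 in DKO, 0.78 in RbKO and 0.70 in p53KO livers against WT. Faap20, a core complex partner, fell by 0.53 in DKO and 0.49 in RbKO livers. In RbKO livers the differences within set 1 and set 2 were 0.47 and 1.80 for Parpbp, and 0.83 and 1.32 for Tipin. For Babam1 they were -0.60 and -1.11, and for Faap20 -0.46 and -0.54.

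Within DKO livers after DEN, 6 of these 50 genes rose and 3 fell, against 4.49% of all tested genes higher and 16.5% lower. Mcm8, a helicase subunit used in recombination, rose by 0.85 (limma adjusted p = 0.000831), Parpbp by 0.82 and Tipin by 0.73. Babam1 fell by 0.97 and Babam2 by 0.87, both subunits of the BRCA1-A complex, and H2ax, the histone marked at breaks, fell by 0.58. In WT livers after DEN 2 of the 50 rose, Faap20 by 0.61 and Tipin by 0.71, and none fell by limma. Over all tested genes 2.08% were higher and 1.91% lower there. Faap20 was higher within both sets (0.52 in set 1 and 0.76 in set 2), whereas Tipin was 1.20 within set 1 and -0.16 within set 2. The response was larger in DKO than in WT livers for Mcm8 (0.75) and Mcm9 (0.83), and lower for Babam1 (-1.39), H2ax (-0.90) and Faap20 (-0.80). In that contrast 1.36% of all tested genes were called higher and 8.54% lower. Without DEN none of the 50 was called between DKO and WT livers, nor after DEN between DKO and either single deletion.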

How the data were processed

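Liver RNA had been amplified and put on 1-colour Affymetrix arrays, per the labels' protocols. The authors deposited log2 values made by RMA in Affymetrix Expression Console 1.1, per the submitters' processing notes; whether all 25 arrays were normalized together, the genome build and the sexes are not given in the sources used here. Of 35555 probe sets, 21789 had 1 gene symbol. The brightest probe set of each of 19938 genes was kept, and 3987 genes with a mean under the 20th percentile (3.33 log2) were not tested.

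In limma 3.58.1 (lmFit, eBayes; R 4.3.3), group means and a term for the array set were fitted to all arrays, with two-sided tests and Benjamini-Hochberg adjustment over 15951 genes. A call is an adjusted p under 0.05. SE is limma's moderated standard error, and intervals are 95% and unadjusted. The calculation was tested on simulated data. Alternatives changed the set term (statmod 1.5.0 for the random block), sets, groups, filter, probe sets, centring, weights, variance prior and each array in turn. The number of arrays limits the precision of all values.

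The members, lists and role groups were chosen with earlier results of these data known. Genes are named where called, and further listed genes in order of p. Promoter matches were read from a RefSeq table, GRCm38.p6.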

Additional observations from a re-analysis of the deposited data

Results flagged for a closer look

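Among the 140 sets of values formed by the 35 genes in the 4 groups of 4 or 5 arrays, 6 held 1 array far from the others by Dixon's ratio (its gap to the nearest array over the range of the group). Chance flags about 1 set in 20. None of these arrays belonged to set 1. In DEN DKO livers replicate 5 was highest for Fancc (4.30, nearest array 3.98, ratio 0.776) and lowest for Fance (4.45, nearest 4.68, ratio 0.752) and Bard1 (4.67, nearest 5.22, ratio 0.853), and replicate 4 was lowest for Fancl (5.61, nearest 6.07, ratio 0.75). Both belong to set 3. Among the arrays labelled DEN RbKO, replicate 4, the only one of set 2 and the array with the highest Rb1 signal (6.28 log2), was highest for Atm (5.78, nearest 5.21, ratio 0.871) and lowest for Chek2 (4.37, nearest 4.60, ratio 0.942). The DEN response of Bard1 differed between genotypes, being larger in DKO than in WT livers by 0.69 on the log2 scale (limma adjusted p = 0.0295). Leaving out 1 array at a time kept it between 0.63 and 0.75, and the call was lost in 7 of 16 such fits.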

How the results depend on the processing

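The counts of members called depended most on how the array sets were handled, and no called difference changed sign under any alternative. By limma, DEN against untreated in WT livers gave 0 calls (2 members at an unadjusted p under 0.05), but 3 in set 1 only, 1 without set 2 and 2 with array weights. The difference between the DKO and WT responses gave 1 call, but 0 with no set term, without set 2, with the mean of probe sets and with centred arrays (limma; 9, 4, 8 and 4 members at an unadjusted p under 0.05), 2 in set 1 only, 2 with a filter at the 40th percentile, 3 with array weights and 4 with only the groups of the comparison. Untreated DKO against WT gave 0 calls (2 unadjusted), but 3 in set 1 only, 3 with array weights and 4 with only its groups. After DEN, p53KO against WT gave 4 calls, but 17 with no set term, 9 with the set as a random block and 0 with only its groups (4 at an unadjusted p under 0.05). RbKO against WT gave 14, but 9 with no set term, 7 in set 1 only and 1 without set 2. DKO against WT gave 11, but 17 with no set term, 6 with only its groups and 5 without set 2. DKO against p53KO gave 0 (1 unadjusted), but 3 in set 1 only (Brip1 0.53, Rad50 0.62, Rad54b 0.63), and DKO against RbKO gave 0 (4 unadjusted), but 1 in set 1 only (Atr -0.46). Fits of set 1 only, without set 2 or of 2 groups hold fewer arrays by construction; otherwise the cause was not tested. With 1 array left out the counts ranged from 7 to 11 for DKO livers after DEN against untreated, 0 to 2 for the difference between responses, 2 to 5 for p53KO (2 without p53KO replicate 1), 2 to 16 for RbKO (2 without RbKO replicate 4) and 5 to 12 for DKO against WT after DEN (5 without DKO replicate 3), and stayed at 0 for the other 4 comparisons. For single called genes, 301 such fits kept the call and 87 lost it. Calls over all tested genes moved too in these fits. Against WT after DEN they ranged from 35 to 390 for p53KO, 279 to 1970 for RbKO and 1398 to 2114 for DKO. Counts under the other alternatives are given without the share of all tested genes called there. They do not show whether the members moved more than other genes. No paired analysis was possible because the labels give no replicate numbers shared between groups. Signals near background limit the dimmer genes, such as Mus81 and Palb2.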
